A study of Oreolalax rhodostigmatus with 13 samples.

Results

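TYRP1, TYR, DCT and MLANA are 4 pigment cell genes, and their transcripts were followed through 13 single tadpoles of *Oreolalax rhodostigmatus*, a toad whose transparent cave tadpoles darken in light. Each gene is 1 of the 249088 unigenes (assembled transcripts) in the deposited table. The 4 unigenes were named from their best protein hits and were chosen by their FPKM in the 4 control and 3 long-term exposed tadpoles, values that served to look up the rows. The comparisons of 30 h of light with the other groups are therefore given as a description with no test. The 6 short-term exposed tadpoles had no part in the look-up. The 4 controls did, so the tests of 4 h against control are free of the look-up on 1 side only. All 4 passed the filter on low values (3 or more libraries with FPKM of 0.3 or higher), which left 147189 unigenes for the tests.

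All 13 tadpoles were wild, at Gosner stage 25, and were taken at the same time from the dark part of a cave. The control group held 4 tadpoles killed at once, with 0 h of light. The other 9 were kept in a cage at the cave entrance, lit by a lamp after dark, and were killed after 4 h (short-term exposed, 6 animals) or 30 h (long-term exposed, 3 animals). Light, captivity and time of day cannot be told apart. Each library came from the pooled tissues of 1 animal, given as skin, eyeball and liver in the labels and with part of the tail added in the methods, so replicates are separate animals. FPKM counts fragments scaled to the length of a unigene and to the size of the library, and so levels of different genes can be set against each other. In such bulk samples, fewer pigment cells and less RNA per cell cannot be told apart.

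Melanin is made in melanosomes, the pigment granules of melanophores in amphibian skin and of the pigment epithelium of the eye, which uses the same enzymes. Tyrosinase (TYR) carries out the rate-limiting oxidation of tyrosine, dopachrome tautomerase (DCT) converts the dopachrome that follows, and tyrosinase-related protein 1 (TYRP1) acts downstream of DCT in the mouse. MLANA is a small membrane protein of the melanosome without enzyme activity, needed in human cells for maturation of PMEL, whose fibrils carry the melanin. The best hits lay in *Xenopus laevis* for TYRP1 and in *X. tropicalis* for TYR and MLANA, while that of DCT lay in a bird.

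Long-term exposed replicates 1 and 3 were the deepest libraries, while replicate 2 (relative depth 0.812) lay within the range of the other groups. Relative depth, estimated from the value of 1 read with the deepest library set to 1, was 0.66 to 0.841 in controls, 0.707 to 0.871 in the short-term and 0.812 to 1 in the long-term exposed group. Unigenes above 0 numbered 112990 to 134725, 91929 to 136138 and 140196 to 147363 in the same order. The lowest, 91929, was in short-term exposed replicate 5, against 122575 to 136138 in the others of its group. That library also held the highest 4 h ratios of TYRP1 and MLANA to TYR and to DCT given below. Over all unigenes tested, the median log2 difference from controls was 0.20 after 30 h and -0.10 after 4 h, and 0.23 between 30 h and 4 h. Without short-term exposed replicate 5 the median after 4 h was 0.0345. Replicate 1 of the short-term and replicate 1 of the long-term exposed group stood apart from the rest of their groups over many unigenes, and values without them are given where a result rests on them. Named marker lists were short, and names were held mostly for lists that the study chose on these samples. The lens list (1 unigene, crystallin gamma E) summed to 0 to 1.04 FPKM in controls, 0.66 to 2.15 in the short-term and 6.77 to 7.83 in the long-term exposed group. The liver list (3 unigenes) summed to 853.2 to 2177, 542.1 to 2493 and 8122 to 12013. The muscle list (3 unigenes) summed to 6.02 to 12.3, 4.10 to 9.73 and 11.2 to 21.1. The list named epidermis (2 unigenes, both desmoglein-2) summed to 11.0 to 36.1, 4.93 to 43.3 and 15.3 to 42.1, with overlap of all groups. Whether desmoglein-2 follows the share of skin in these samples was not tested, so no share of skin is read from it. Only unigenes with a best hit outside mammals entered these lists, since mammalian best hits had been seen to follow single libraries. Under that rule 0 unigenes with a listed retina name were left.

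All 4 transcripts were present in the dark. TYRP1 stood at 2.82, 2.26, 0 and 3.49 FPKM in control replicates 1 to 4, and at 1.43, 0, 3.49, 3.82, 4.16 and 1.99 in short-term exposed replicates 1 to 6. In long-term exposed replicates 1 to 3 it stood at 7.57, 14.18 and 13.98. The long-term exposed tadpoles lay above all others, while control and short-term exposed tadpoles covered the same range, each with a single animal listed at 0. Such a 0 can be an absent transcript or a failed estimate. Group means were 2.14 ± 1.51 (SD, n = 4), 2.48 ± 1.62 (SD, n = 6) and 11.9 ± 3.76 (SD, n = 3).

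TYR had the lowest mean level of the 4 in each group and lay below 1 FPKM in 9 of 13 libraries. Controls had 0.30, 0.19, 0.18 and 0.52 FPKM and short-term exposed tadpoles 0.38, 0.37, 1.06, 0.41, 0.22 and 0.46. The long-term exposed tadpoles had 1.25, 2.42 and 2.76, again above all others. Means were 0.298 ± 0.158 (SD, n = 4), 0.483 ± 0.294 (SD, n = 6) and 2.14 ± 0.792 (SD, n = 3).

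DCT varied most among the short-term exposed tadpoles. It stood at 0.20, 2.46, 1.03, 0.41, 0.11 and 0.18 FPKM there, a span of 22.4-fold. Controls had 0.45, 0.43, 0.10 and 0.88 and the long-term exposed tadpoles 1.87, 3.93 and 5.08. The long-term exposed group lay above every control, but short-term exposed replicate 2 lay above long-term exposed replicate 1. Means were 0.465 ± 0.320 (SD, n = 4), 0.732 ± 0.911 (SD, n = 6) and 3.63 ± 1.63 (SD, n = 3).

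MLANA had the lowest coefficient of variation of the 4 in the control group (34.8%) and in the short-term exposed group (35.6%). Controls had 3.16, 3.06, 1.63 and 4.17 FPKM and short-term exposed tadpoles 2.03, 2.04, 4.59, 4.54, 3.97 and 2.84. Long-term exposed replicates 2 and 3 had 9.72 and 11.8, above all other animals, but replicate 1 had 3.81 and lay within the range of both other groups. Means were 3.00 ± 1.04 (SD, n = 4), 3.34 ± 1.19 (SD, n = 6) and 8.43 ± 4.12 (SD, n = 3).

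**Figure D1:**
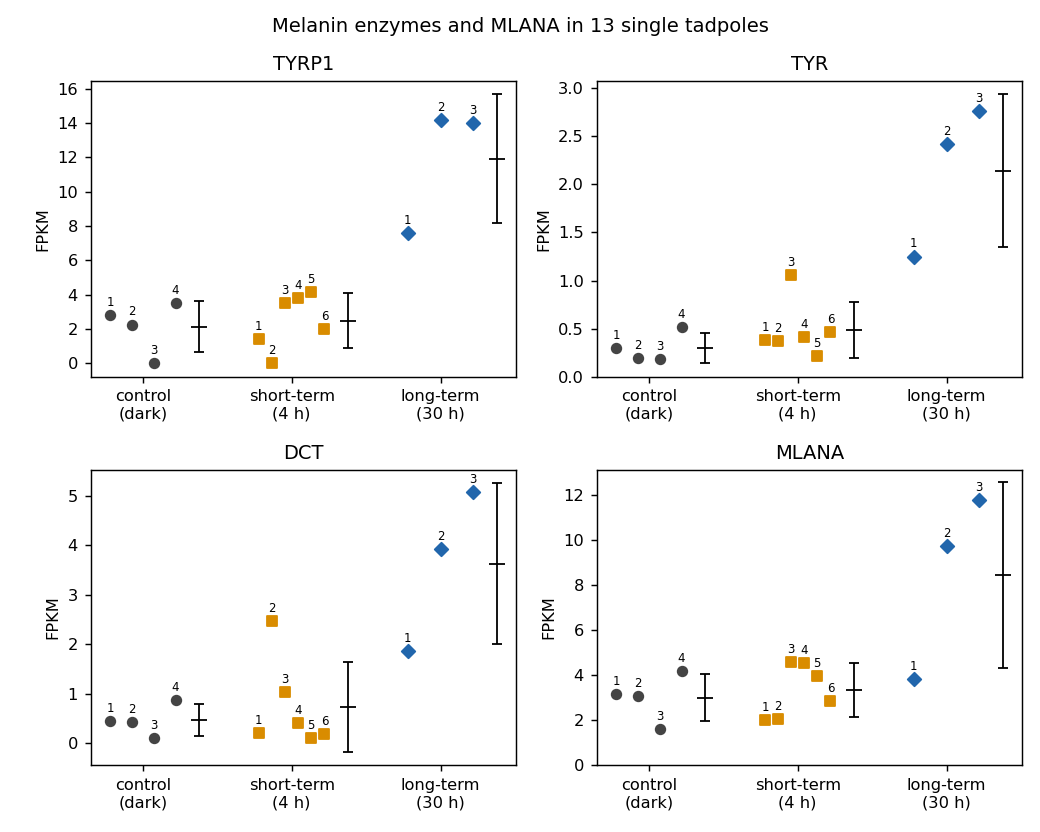
FPKM of TYRP1, TYR, DCT and MLANA in each tadpole, by group, with replicate numbers above the points and the group mean ± SD beside them (n = 4, 6 and 3). The 3 long-term exposed tadpoles lie above all others for TYRP1 and TYR, while short-term exposed replicate 2 reaches 2.46 for DCT and long-term exposed replicate 1 stands at 3.81 for MLANA.

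In controls the order of the mean levels was MLANA, TYRP1, DCT and TYR. After 30 h it was TYRP1, MLANA, DCT and TYR. Within single animals MLANA exceeded TYR in 13 of 13 tadpoles and DCT in 12 of 13. MLANA also exceeded TYRP1 in 4 of 4 controls and 5 of 6 short-term exposed tadpoles, but in 0 of 3 long-term exposed tadpoles. DCT exceeded TYR in 3 of 4 controls, 1 of 6 short-term exposed and 3 of 3 long-term exposed tadpoles. Neighbours in the order of the means, MLANA with TYRP1 and DCT with TYR, overlapped in each group.

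After 4 h of light none of the 4 transcripts was called higher or lower. On the scale log2(FPKM + 0.1), the fitted difference from controls was 0.38 for TYRP1 (standard error, SE, 1.11, limma adjusted p = 0.958) and 0.51 for TYR (SE 0.52, limma adjusted p = 0.806). It was 0.16 for DCT (SE 0.73, limma adjusted p = 0.972) and 0.14 for MLANA (SE 0.44, limma adjusted p = 0.962). Exact permutation tests (two-sided) gave p = 0.752, 0.214, 0.824 and 0.705 in the same order, where 6 against 4 animals can reach 0.00476. Of the 4 members 0 had an unadjusted limma p under 0.05. The share of all unigenes under that unadjusted threshold was not computed, so nothing is read from this count. At a limma adjusted p under 0.05, 0.0408% of all unigenes tested were called higher and 0.0401% lower in this comparison. For TYRP1, DCT and MLANA the sign was set by single animals: without control replicate 3 their differences were -0.83, -0.28 and -0.12, and without short-term exposed replicates 2 or 3 that of DCT was -0.29 and -0.06. For TYR the difference stayed positive without each library in turn, at 0.29 to 0.75.

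After 30 h the fitted difference from controls was 3.20 for TYRP1 (SE 1.31), 2.50 for TYR (SE 0.61), 2.82 for DCT (SE 0.87) and 1.38 for MLANA (SE 0.53). For 3 of the 4 members all long-term exposed tadpoles had higher values than all controls, as was so for 7.71% of all unigenes tested. The values that chose the members include these, so nothing is read from that count. Against the short-term exposed group the differences were 2.82 (SE 1.21), 1.99 (SE 0.56), 2.67 (SE 0.80) and 1.24 (SE 0.49) in the same order. Here 2 of the 4 members had no overlap with the short-term exposed group, against 7% of all unigenes. The same 2, TYRP1 and TYR, lay above both other groups, against 3.94% of all unigenes. The long-term exposed values chose the members here too, so nothing is read from these counts either. Without control replicate 3 the TYRP1 difference from controls was 1.99. Without long-term exposed replicate 1, which overlapped both other groups for MLANA, the MLANA difference was 1.87 from controls and 1.73 from the short-term exposed group.

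The ratios between members compare their levels within the pooled library of each animal, where pigment cells of skin and eye cannot be told apart. Of the 6 ratios between members, MLANA to TYRP1 had the smallest spread among dark and briefly lit tadpoles with TYRP1 above 0. It was 1.12, 1.35 and 1.19 in control replicates 1, 2 and 4 and 1.42, 1.32, 1.19, 0.954 and 1.43 in short-term exposed replicates 1 and 3 to 6, with the animals that list TYRP1 at 0 left out. In the long-term exposed tadpoles it was 0.503, 0.685 and 0.84, below all 8 of the others. MLANA to DCT was 7.02, 7.12, 16.3 and 4.74 in controls, 0.829 to 36.1 (median 10.6, n = 6) after 4 h, and 2.04, 2.47 and 2.31 after 30 h. MLANA to TYR was 10.5, 16.1, 9.06 and 8.02 in controls, 4.33 to 18.0 (median 5.84, n = 6) after 4 h, and 3.05, 4.02 and 4.26 after 30 h. For both of these ratios the long-term exposed tadpoles lay below every control. The size of these differences depends on the constant added to FPKM: the log2 difference between 30 h and control was -1.12 for MLANA to TYR and -1.44 for MLANA to DCT with 0.1 added, and -0.09 and -0.46 with 1 added. For MLANA to TYR they lay below every short-term exposed tadpole as well, though not once 0.1 was added to each FPKM, and for MLANA to DCT short-term exposed replicate 2 lay lower still.

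Relative to TYR, the other enzymes had similar ratios in the 3 long-term exposed tadpoles. TYRP1 to TYR was 6.06, 5.86 and 5.07 there, and DCT to TYR was 1.5, 1.62 and 1.84. TYRP1 to DCT was 4.05, 3.61 and 2.75, with an SD of the log2 ratio of 0.27, the same as in the 3 controls with TYRP1 above 0. In short-term exposed replicates 1 to 6 TYRP1 to TYR was 3.76, 0, 3.29, 9.32, 18.9 and 4.33, and DCT to TYR was 0.526, 6.65, 0.972, 1.00, 0.50 and 0.391. Controls held TYRP1 to TYR at 9.40, 11.9, 0 and 6.71 and DCT to TYR at 1.5, 2.26, 0.556 and 1.69. The SD of the log2 ratio of DCT to TYR was 0.60 in controls, 1.25 after 4 h and 0.16 after 30 h. Without the libraries that list TYRP1 at 0 it was 0.20, 0.43 and 0.16, and for TYRP1 to TYR it was 0.25, 0.93 and 0.12. At the FPKM of TYR and DCT in controls and after 4 h, the deposited 2 decimals and few reads limit how finely a ratio can be known, and the part of this in the wider spread was not tested.

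Exact permutation tests of the 10 log2 ratios (6 between members and 4 against PMEL) between the short-term exposed and control groups gave adjusted p of 0.99 for each. The lowest unadjusted p was 0.143, for DCT to PMEL, with a log2 difference of -0.58. Without short-term exposed replicate 2 this difference was -0.82 (exact permutation p = 0.0159, unadjusted) and that of DCT to TYR was -0.84 (exact permutation p = 0.0476, unadjusted). That animal had the highest value of its group for both ratios, so leaving it out lowers both group means by construction. These values were picked from many runs that each left out a library, and nothing is concluded from them.

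**Figure D2:**
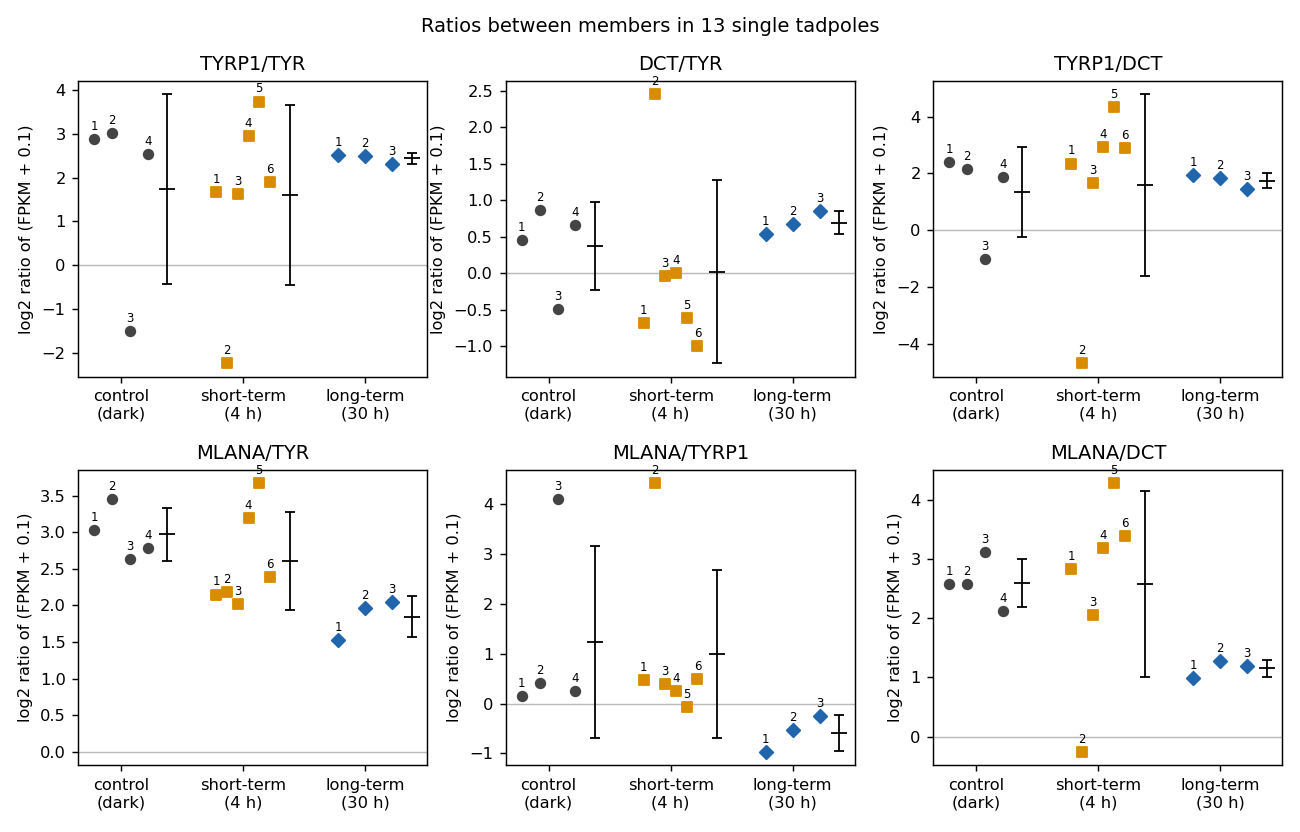
Log2 ratios of (FPKM + 0.1) between members in each tadpole, by group, with replicate numbers and the group mean ± SD (n = 4, 6 and 3). The 3 long-term exposed tadpoles lie low in the 3 ratios with MLANA. They lie close together in each panel but that of MLANA to TYRP1. There their SD is 0.36, against 0.13 in the 3 controls and 0.23 in the 5 short-term exposed tadpoles with TYRP1 above 0. Control replicate 3 and short-term exposed replicate 2, with TYRP1 at 0, lie far from their groups in the panels with TYRP1.

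The 2 animals that list TYRP1 at 0 differed in the other members. Control replicate 3 had the lowest or joint lowest level of all 13 tadpoles for each of the 4, with TYR at 0.18, DCT at 0.10 and MLANA at 1.63 FPKM. Its PMEL level, 1.09, was the lowest as well, and its crystallin gamma E level was 0. Short-term exposed replicate 2 had the highest DCT level of its group (2.46) and the highest PMEL level of its group (8.05), with TYR at 0.37 and MLANA at 2.04. Relative depth was 0.841 and 0.707 in these libraries, within the range of the others.

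**Figure D3:**
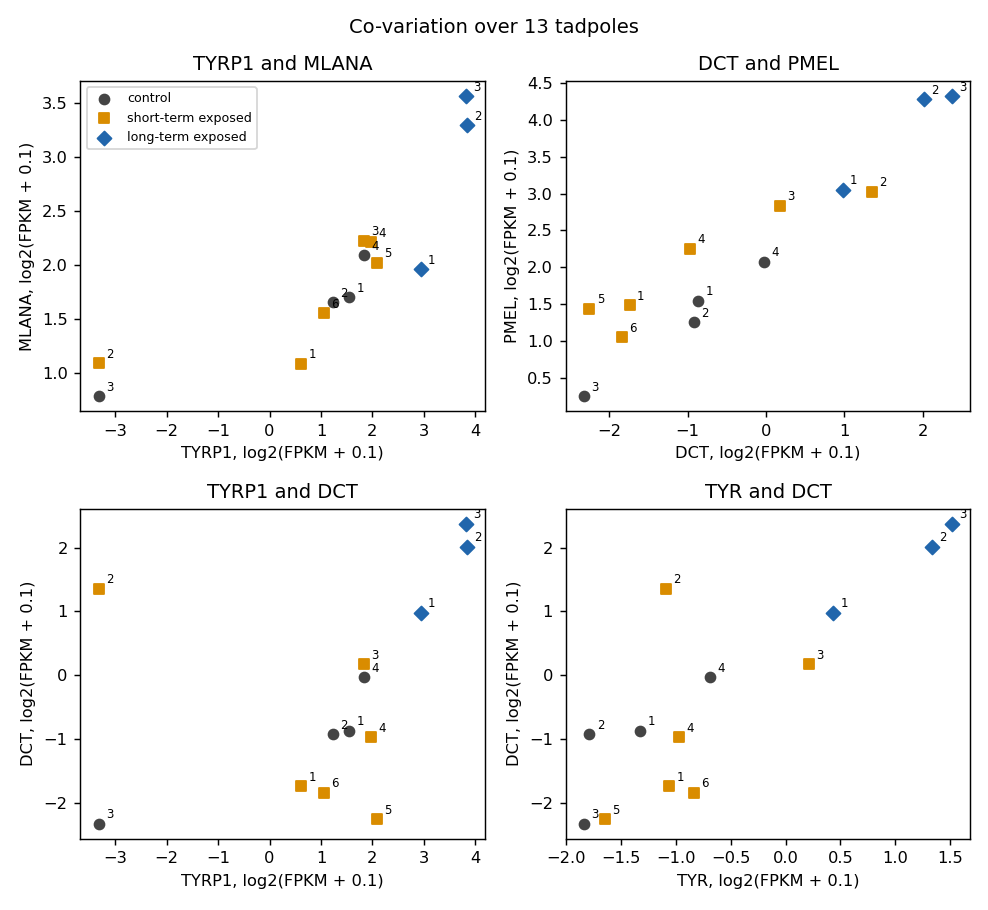
Levels of TYRP1 and MLANA, DCT and PMEL, TYRP1 and DCT, and TYR and DCT in 13 tadpoles, each axis log2(FPKM + 0.1), with replicate numbers beside the points. DCT and PMEL rise together in each group (r = 0.935 in the 6 short-term exposed tadpoles), and the ranges of their ratio overlap between all groups. DCT to PMEL was 0.0421 to 0.146 in the 5 short-term exposed tadpoles with TYRP1 above 0. It was 0.306 in short-term exposed replicate 2, 0.0917 (replicate 3, with TYRP1 at 0) to 0.214 in controls and 0.203 to 0.255 after 30 h. Short-term exposed replicate 2 stands off the others in the panel of TYRP1 and DCT.

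Over the 13 tadpoles each pair of members had a positive correlation of log2(FPKM + 0.1), given as a description because the step between groups enters it. Pearson's r was 0.833 for TYR with DCT, 0.83 for TYRP1 with MLANA, 0.827 for TYR with MLANA, 0.676 for DCT with MLANA, 0.644 for TYRP1 with TYR and 0.373 for TYRP1 with DCT (n = 13). Spearman's rho was 0.731, 0.887, 0.725, 0.599, 0.686 and 0.504 in the same order. The low r of TYRP1 with DCT rested on short-term exposed replicate 2: without that animal it was 0.751, above the 0.718 of TYRP1 with TYR. Without the 2 libraries that list TYRP1 at 0 it was 0.87, against 0.839 for TYRP1 with TYR. After subtraction of the group means r was 0.584, 0.726, 0.613, 0.306, 0.341 and -0.12. These values too moved with single animals. Without short-term exposed replicate 2 they were 0.893 for TYR with DCT, 0.762 for DCT with MLANA and 0.653 for TYRP1 with DCT, and without control replicate 3 they were 0.147 for DCT with MLANA, 0.225 for TYRP1 with TYR and -0.58 for TYRP1 with DCT. Without short-term exposed replicate 5 the r of TYRP1 with TYR was 0.514. The r of TYRP1 with MLANA ran from 0.634 to 0.836 without each library in turn. All points share the depth and tissue mix of their library.

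Within the 6 short-term exposed tadpoles, which the look-up did not use, TYRP1 and MLANA had r = 0.758 (exact permutation p = 0.0167, adjusted over 6 pairs 0.1) and rho = 0.714 (exact permutation p = 0.136, adjusted 0.711). This pair did not pass after adjustment. Without the 2 tadpoles farthest from the median of TYRP1 its r was 0.875. TYRP1 with DCT had r = -0.70 (exact permutation p = 0.113, adjusted 0.338) and rho = -0.54 (exact permutation p = 0.297, adjusted 0.711), and r was 0.173 without the farthest 2 tadpoles and 0.293 without short-term exposed replicate 2. The other 4 pairs had r from -0.17 to 0.437, with adjusted exact permutation p of 0.729 each. The rho of these 4 pairs ran from -0.03 to 0.486, with adjusted exact permutation p of 0.711 to 1. Among them, TYR with DCT had r = 0.437 over all 6 and 0.917 without short-term exposed replicate 2 (exact permutation p = 0.0333, unadjusted). That p-value was picked from many runs that each left out an animal, and nothing is concluded from it. Without the 2 tadpoles farthest from the median of TYR, the r of this pair was -0.62.

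DCT varied with PMEL, a structural protein of the melanosome that is not among the members. PMEL (2 unigenes summed) stood at 2.82, 2.29, 1.09 and 4.12 FPKM in controls, at 2.69, 8.05, 7.04, 4.66, 2.61 and 1.97 in the short-term and at 8.20, 19.4 and 19.9 in the long-term exposed tadpoles. Within the 6 short-term exposed tadpoles DCT and PMEL had r = 0.935 (exact permutation p = 0.00417, adjusted over the 4 members 0.0167) and rho = 0.943 (exact permutation p = 0.0167, adjusted 0.0667). Without the 2 animals farthest from the median of DCT r was 0.798, and without each animal in turn it ran from 0.928 to 0.964. Over 13 tadpoles r was 0.947 and, with group means subtracted, 0.935. The correlation with PMEL in the short-term exposed group was -0.47 for TYRP1, 0.467 for TYR and 0.104 for MLANA, with adjusted exact permutation p of 0.524, 0.524 and 0.826. Their rho was -0.37, 0.03 and 0.143, with adjusted exact permutation p of 0.994, 1 and 1. Without the 2 tadpoles farthest from the median of each gene, the r was 0.53, -0.70 and 0.867. Whether DCT differs from the other members in its correlation with PMEL was not tested.

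When the other 147188 unigenes tested were ordered by their r with DCT over 13 tadpoles, PMEL had rank 1, and rank 5 after subtraction of the group means. In the order by r with TYRP1 over 13 tadpoles, MLANA had rank 58, TYR rank 1648 and DCT rank 21357. After subtraction of the group means these ranks were 576, 20446 and 91437. In the order by r with TYR, PMEL had rank 104 and DCT rank 993, and after subtraction 10037 and 19021. These ranks are descriptions over 13 libraries and carry no test.

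Beside the members, PMEL rose after 30 h of light relative to controls, by 2.60 on the log2 scale (SE 0.60, limma adjusted p = 0.0466). It was the only called entry of 21 tested in a list of 31 pigment entries that leaves out the members, and 0 entries were lower. The list was put together by the study on these samples and is not independent evidence. Over all unigenes tested, 0.975% were called higher and 0.399% lower in this comparison. The PMEL call was lost without any 1 of the 4 controls, any 1 of the 3 long-term exposed tadpoles or short-term exposed replicates 1 or 4, and without short-term and long-term exposed replicates 1 together, the last chosen after the data were seen. The median log2 difference of the 21 entries was 1.00, against 0.20 over all unigenes. Among the 21, PMEL X1 and every tested MITF unigene (described below) but MITF-1 were above 0 after 30 h only in long-term exposed replicate 1. Their positive differences therefore rest on that animal.

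Both forms of melanoregulin, which acts in melanosome transport in the mouse, had their lowest mean after 4 h and their highest after 30 h. Melanoregulin X3 stood at 3.29, 0.74, 1.86 and 2.20 FPKM in controls, 0.82, 0.26, 0.88, 1.08, 0.52 and 0.94 in the short-term exposed and 4.23, 8.91 and 7.87 in the long-term exposed tadpoles. Between 30 h and 4 h it rose by a log2 difference of 3.10 (SE 0.56, limma adjusted p = 0.00849). Melanoregulin X1 had 1.57, 1.23 and 2.66 FPKM after 30 h and 0, 0, 0.59, 0, 0.16 and 0 after 4 h, and rose by a fitted log2 difference of 3.50 (SE 0.74, limma adjusted p = 0.0195). These were the 2 entries called higher of the 21 tested in this comparison, against 2.09% of all unigenes, and 0 were called lower, against 0.957%. Neither call held without long-term exposed replicate 2 or replicate 3, and 1 call was left without replicate 1. PMEL had a log2 difference of 1.87 here (SE 0.56, limma adjusted p = 0.0867). Between 4 h and control the 2 forms had log2 differences of -1.26 and -1.22, which did not pass (limma adjusted p = 0.358 and 0.554). Melanophilin, which links melanosomes to a motor protein in mammals, had 3 of its 5 forms tested and none called in any comparison, with log2 differences after 30 h from control of 0.82 to 1.06.

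The signalling entries were scarce in these libraries. Of 6 entries, MC1R, MC4R and MC5R, receptors for melanocortins, stayed under the filter, with at most 0.32, 0.36 and 0.43 FPKM. POMC, the precursor of those hormones, was at 0.55, 0, 0.08 and 0 FPKM in controls and at 0, 0.48 and 0 after 30 h. Short-term exposed replicate 2 had a POMC level of 1.91, against 0 to 0.09 in the other 5 of its group. The agouti peptide, which opposes MC1R, had 0.63, 0.10, 0.45 and 1.08 FPKM in controls and 0.55, 0.93 and 1.95 after 30 h (log2 difference 1.00, SE 0.89, limma adjusted p = 0.703). MCHR1, a receptor for melanin-concentrating hormone, was listed at 0 in all 6 short-term exposed tadpoles and at 0 to 1.22 in the others. None of the 3 signalling entries tested was called in any comparison.

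MITF, the transcription factor that drives the melanin enzyme genes in vertebrate pigment cells, was represented by 16 unigenes, of which 11 were tested. After 4 h 0 of the 11 were called (limma), although all 11 had a positive difference with a median of 2.15, and 8 had an unadjusted p under 0.05. The share of all unigenes under that unadjusted threshold was not computed. Nothing is therefore read from the counts at that threshold in this paragraph. The 11 are not separate pieces of evidence. They stood at 0 in all controls or all but 1, so they passed the filter on low values mainly through light-exposed libraries. A positive difference was therefore favoured in advance, and nothing is read from the shared sign or the median. Apart from MITF-1, each of the 11 stood at 0 in short-term exposed replicate 1 and in long-term exposed replicates 2 and 3. PMEL X1, a list entry with its best hit in a macaque, was at 0 in those libraries too. Its 4 h log2 difference was 3.22 (SE 0.93, limma adjusted p = 0.23). Mammalian best hits were kept out of the marker lists because they followed single libraries. Whether the shared pattern of PMEL X1 and the MITF unigenes has the same origin was not tested. MITF-B stood at 0 in all controls, at 0, 0.97, 2.19, 1.87, 1.69 and 1.53 FPKM after 4 h and at 2.04, 0 and 0 after 30 h. Its 4 h values lay above those of every control in 5 of 6 animals (log2 difference 3.40, SE 0.99, limma adjusted p = 0.23). The fitted 4 h differences of the members ran from 0.14 to 0.51. Over the whole list of 21 tested entries, 0 were called after 4 h with all libraries, 9 were higher and 1 lower at an unadjusted limma p under 0.05, 4 were called higher without short-term exposed replicate 1, and 6 when replicate 1 of the long-term exposed group was left out as well. Over all unigenes the higher calls grew in these fits too, to 2662 of 142275 (1.87%) and 4346 of 134799 (3.22%). With those 2 libraries left out, 6 entries were also called lower after 30 h than after 4 h, as were 4885 of 134799 unigenes (3.62%). MITF-1 had 0.45, 0.35 and 0.34 FPKM after 30 h and 0 in all controls (log2 difference 2.26, SE 0.70, limma adjusted p = 0.168).

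**Figure D4:**
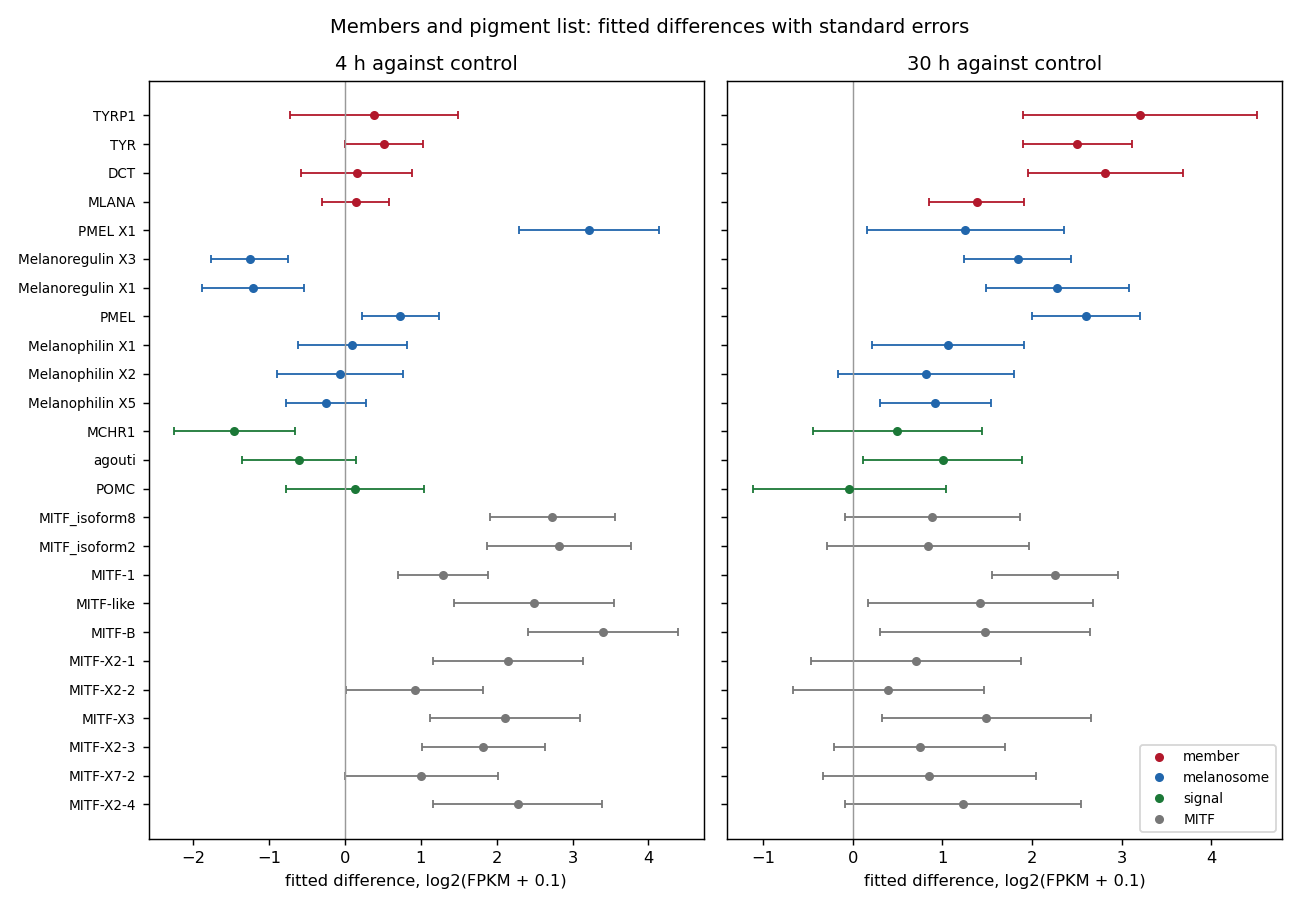
Fitted differences on the scale log2(FPKM + 0.1) with their standard errors for the 4 members and the 21 tested entries of the pigment list, after 4 h (left) and 30 h (right) of light against control, coloured by list. After 4 h the 4 members lie between 0.14 and 0.51 and the 11 MITF unigenes lie above 0. The MITF unigenes passed the filter mainly through light-exposed libraries, so nothing is read from their sign. After 30 h the members lie between 1.38 and 3.20.

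The higher levels of the members after 30 h came together with higher levels of lens and liver transcripts in the same libraries. Crystallin gamma E, a lens protein, had 1.04, 0.98, 0 and 0.48 FPKM in controls, 0.91, 0.89, 1.46, 2.15, 1.36 and 0.66 after 4 h and 7.83, 6.77 and 7.33 after 30 h. Albumin 1, a liver protein, ran from 852.25 to 2175.9 FPKM in controls and from 8060.3 to 11981.82 after 30 h. For none of the 4 members did a long-term exposed tadpole exceed all controls in its ratio to crystallin gamma E. Among the controls with a ratio, this rested on replicate 4 (crystallin at 0.48 FPKM) for TYR and DCT. For these 2 members long-term exposed replicates 2 and 3 exceeded control replicates 1 and 2. TYRP1 to crystallin was 2.71, 2.31 and 7.27 in the controls with crystallin above 0, and 0.967, 2.09 and 1.91 in the long-term exposed tadpoles. TYR to crystallin was 0.288, 0.194 and 1.08 in the same controls and 0.16, 0.357 and 0.377 after 30 h, and DCT to crystallin was 0.433, 0.439 and 1.83 against 0.239, 0.581 and 0.693. MLANA to crystallin was 3.04, 3.12 and 8.69 against 0.487, 1.44 and 1.60, with no overlap. Within the 6 short-term exposed tadpoles the r with crystallin gamma E was 0.783 for MLANA, 0.495 for TYRP1, 0.114 for TYR and 0.04 for DCT, and without the 2 animals farthest from the median of each member it was 0.937, 0.874, -0.17 and 0.556. With albumin 1 it was -0.17 for MLANA, -0.33 for TYRP1, -0.67 for TYR and -0.06 for DCT. These comparisons were chosen after the values were seen and are descriptions. The lens and liver unigenes were found by name, and names were held mostly for lists that the study chose on these samples. They may therefore be held because they changed with light. The part of lens or liver tissue in the levels of the members was not tested, and a greater share of eye tissue and a change within cells cannot be told apart in pooled tissue.

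**Figure D5:**
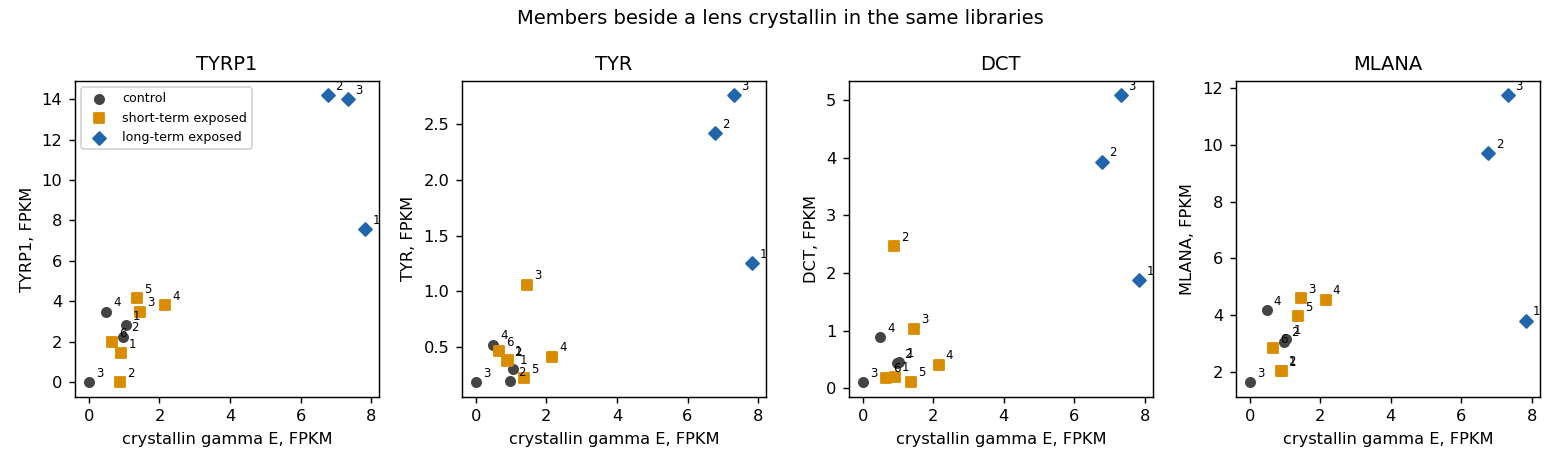
FPKM of each member (vertical axes) against FPKM of crystallin gamma E (horizontal axes) in 13 tadpoles, with replicate numbers beside the points. The long-term exposed tadpoles lie at 6.77 to 7.83 for crystallin gamma E and all other tadpoles at 2.15 or below, and among the former replicate 1 has the highest crystallin and the lowest level of each member.

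A search of the other unigenes with names gave the closest profiles to the mean of the 4 standardised members. Of 1030 named unigenes among those tested, the highest r over 13 libraries belonged to guanylate binding protein family member 6 (0.956), cytosolic 5'-nucleotidase 3A (0.947), transmembrane channel-like protein 7 (0.935) and twinfilin-2, an actin-binding protein (0.916). Next came a vasopressin V1a receptor (0.905), a zona pellucida protein 4-like unigene (0.905), a beclin 1-associated autophagy regulator (0.903), PMEL (0.902) and a BTB/POZ domain protein 2 (0.901), besides an uncharacterised unigene (0.916). Guanylate binding protein 6 averaged 3.65 FPKM in controls, 4.17 after 4 h and 9.90 after 30 h, and the nucleotidase 1.79, 2.83 and 10.2. Both also led among named unigenes after subtraction of group means, with r of 0.884 and 0.872. Growth/differentiation factor 8 (0.865), a myosin light polypeptide 6 with its best hit in a mammal (0.865) and a protocadherin-20-like unigene (0.847) followed. Mammalian best hits, kept out of the marker lists because they followed single libraries, were not left out of this search. Among all unigenes tested, these named ones had ranks from 96 to 290 by this measure. Over 13 libraries without subtraction the r of the last 3 was 0.0637, 0.447 and 0.797. Growth/differentiation factor 8 averaged 0.522 FPKM in controls, 0.812 after 4 h and 0.257 after 30 h, so it did not rise with the members. The members themselves had r of 0.81 (TYRP1), 0.94 (TYR), 0.82 (DCT) and 0.948 (MLANA) with their mean profile, which they make up. Names were held mostly for lists that the study chose on these samples, so named unigenes are not a neutral sample of the assembly.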

How the data were processed

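RNA of 13 tadpoles was sequenced in 13 libraries. After quality filtering, the authors built 1 joint Trinity assembly without a genome and deposited FPKM per unigene, rounded to 2 decimals. The aligner and counter were not given in the sources used here. As FPKM keeps no read counts, counting intervals were not computed. Groups were taken from the labels, and 0 value columns were left unassigned. Names are best protein hits from the study's annotation, and entries that the study sums over several unigenes were summed. No sequences were used here. The members and lists were chosen with earlier results of these data known.

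Values were set on the scale log2(FPKM + 0.1), where 147189 unigenes (3 or more libraries with FPKM of 0.3 or higher) were fitted over all 13 libraries with limma 3.58.1 (R 4.3.3, mean-variance trend, Benjamini-Hochberg adjusted p under 0.05 as a call). The code was tested on simulated data. Exact permutation tests (two-sided), Pearson and Spearman coefficients and ratios were computed with Python 3.11.15, numpy 2.4.6, pandas 2.3.3 and SciPy 1.17.1, and figures with matplotlib 3.10.9. Correlation p-values cover all 720 pairings of 6 libraries. Named genes were the members, the pigment list, the 10 named unigenes most like the members over 13 libraries and the 5 most like them with group means subtracted. Alternatives were pseudocounts of 1 and 0.01, no filter, 3 or more libraries with FPKM of 1 or higher, array weights, median-of-ratios scaling, a block on the replicate number, only the groups compared, FPKM without a logarithm, leaving out the libraries with TYRP1 at 0, and leaving out each library. Leaving out 2 libraries that stand apart, and the crystallin and albumin comparisons, were added after the data were seen.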

Additional observations from a re-analysis of the deposited data

Results flagged for a closer look

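Within groups of 4 or 6 tadpoles, 20 single values lay far from the rest of their group, among 78 groups of values examined, where chance gives about 1 in 20. Among the members and their ratios these were TYR in short-term exposed replicate 3 (1.06 FPKM), the DCT to TYR ratio in short-term exposed replicate 2 (6.65), the TYRP1 to DCT ratio in short-term exposed replicate 5 (37.8) and the TYRP1 to PMEL ratio in control replicate 3 (0). Among melanosome and signalling entries they were melanoregulin X1 in short-term exposed replicate 3 (0.59 FPKM), MC1R in control replicate 3 (0.02), POMC in control replicate 1 (0.55) and short-term exposed replicate 2 (1.91), and melanophilin X3 in control replicate 1 (1.20) and short-term exposed replicate 6 (0.18). In control replicate 1 they were MITF_isoform2 (0.21), MITF-X2-1 (0.54), MITF-X7 (0.04), MITF-X2-2 (0.59), MITF-X7-2 (0.29) and MITF-X2-4 (0.37). The others were MITF-2 in short-term exposed replicate 5 (0.14), MITF-X7 in replicate 3 (0.32) and MITF-X7-2 in replicate 4 (1.63) of that group, and MITF-3 in control replicate 2 (0.08). Most of these entries are listed at 0 in several libraries of the group, so any value above 0 stands out. The rate of 1 in 20 does not hold for such groups, and no excess is read from the count.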

How the results depend on the processing

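The cause of the changes below was not tested. Replicate numbers did not pair the animals: 0 of 10 same-numbered pairs of libraries had a correlation of deviations over 0.1 (range -0.11 to 0.02), and none correlated best with its own number. With the replicate block the TYRP1 difference after 4 h was -0.0501, and pigment list calls were 0 after 30 h against control and 0 against 4 h. With a pseudocount of 1 the 30 h differences were 1.25 (TYR) and 1.62 (DCT) from control and 1.07 and 1.48 from 4 h. In that fit 2 list entries were called higher than in controls, as were 2325 of 147189 unigenes. With 0.01 these list counts were 0 against control and 1 against 4 h, and without a filter 0 against control. Without short-term and long-term exposed replicates 1, counts were 6 higher after 4 h (3.22% of all unigenes), 0 higher after 30 h than in controls and 6 lower than after 4 h (3.62% of all unigenes). Leaving out each library gave list counts of 0 to 4 higher after 4 h, 0 to 1 after 30 h against control and 0 to 2 against 4 h. The 4 h differences then ran from -0.83 to 1.19 (TYRP1), -0.29 to 0.49 (DCT) and -0.12 to 0.32 (MLANA).

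In the 6 short-term exposed tadpoles, leaving out each moved r from -0.21 to 0.459 (TYRP1 and TYR), -0.90 to 0.293 (TYRP1 and DCT), 0.732 to 0.953 (TYRP1 and MLANA), 0.21 to 0.917 (TYR and DCT), -0.30 to 0.648 (TYR and MLANA), -0.43 to 0.531 (DCT and MLANA), -0.72 to 0.52 (TYRP1 and PMEL) and -0.18 to 0.678 (MLANA and PMEL). Without the libraries with TYRP1 at 0, r was 0.293 (TYRP1 and DCT), 0.953 (TYRP1 and MLANA, exact permutation p = 0.05), 0.917 (TYR and DCT), 0.531 (DCT and MLANA) and 0.52 (TYRP1 and PMEL). The r of DCT and PMEL kept an unadjusted exact permutation p under 0.05 in each alternative run. With a pseudocount of 1 the MLANA to TYR difference after 30 h was -0.0907 from control and -0.0181 from 4 h. Log2 ratio differences after 4 h without the TYRP1 zeros were -1.13 (DCT to TYR), -0.91 (DCT to PMEL), 0.0298 (MLANA to TYRP1), 0.73 (MLANA to DCT) and 0.22 (TYR to PMEL), and 0.00819 for TYRP1 to TYR with a pseudocount of 0.01. Leaving out each library they ran from -1.20 to 0.641 (TYRP1 to TYR), -0.84 to -0.15 (DCT to TYR), -0.56 to 1.48 (TYRP1 to DCT), -0.93 to 0.715 (MLANA to TYRP1), -0.36 to 0.552 (MLANA to DCT), -1.22 to 0.662 (TYRP1 to PMEL), -0.43 to 0.021 (TYR to PMEL) and -0.82 to -0.42 (DCT to PMEL). TYR and DCT lay below 1 FPKM in 9 and 8 of 13 libraries, which limits what can be seen of them.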
